A study of Mus musculus with 16 samples.

Results

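The genes described here encode the subunits of the mitochondrial oxidative phosphorylation machinery that are written in the nuclear genome, in mouse kidney. Members were the protein-coding entries whose symbol begins with Nduf, Uqcr, Atp5, Cox4, Cox5, Cox6, Cox7 or Cox8, together with Sdha, Sdhb, Sdhc and Sdhd. This name rule found 94 of the 30277 genes in the table: 45 assigned to complex I, 4 to complex II, 8 to complex III, 19 to complex IV and 18 to complex V. It also caught 8 complex I assembly factors (Ndufaf genes), which are not subunits, and Cox5b-ps, a processed copy of Cox5b that the table lists as protein coding. Atp5o was listed under 2 identifiers, the second of which held 0 to 3.4 reads in any library. Older symbols are used as in the table (Atp5h, Atp5l, Atp5e and others).

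Oxidative phosphorylation passes electrons from NADH through complex I, or from succinate through complex II, to complex III, cytochrome c and complex IV, where oxygen is reduced. Complexes I, III and IV pump protons across the inner mitochondrial membrane, and complex V, the ATP synthase, uses the gradient to make ATP. Most subunits come from nuclear genes and are imported, the rest come from mitochondrial DNA, and complex II is wholly nuclear-encoded. Kidney tubules, above all the proximal tubule, are rich in mitochondria because their salt and solute transport consumes much ATP.

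Polyadenylated RNA was sequenced from kidneys of 16 C57Bl/6J mice aged 46 to 59 days, 4 per group, to follow renal failure and sex. Male control and female control mice had healthy kidneys and were +/Kl, except male controls 3 and 4, which were +/+. Male KlKl and female KlKl mice were homozygous for the recessive Kl allele, which lowers the anti-ageing hormone and phosphate-regulating co-receptor Klotho in the whole animal, and had renal failure. All animals were congenic, and kidneys were perfused and flash frozen whole, so each library mixes all kidney cell types. In such samples fewer cells of a type and less RNA per cell cannot be told apart.

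Values are deposited TPM divided by a factor per library taken from nuclear protein-coding genes (scaled TPM), and differences are on the log2(scaled TPM + 1) scale, which understates changes of low genes. The deposited TPM divides by the whole gene span with introns, so levels are compared between genes only as reads per kb of exon. Kl itself in males was 9.44 ± 1.14 scaled TPM in controls and 0.745 ± 0.399 in KlKl, and in females 4.06 ± 1.71 in controls and 0.158 ± 0.0933 in KlKl (mean ± SD, n = 4 each), with no overlap between genotypes in either sex. The libraries held 13029864 to 20109192 recovered reads in males and 8209463 to 14505278 in females. Library sample numbers 17 to 24 each occur once among males and once among females, and the labels do not say which libraries were sequenced together. The part of any such set in the sex differences was not tested. Reads on pseudogenes made up 6.20% to 7.46% of male and 8.74% to 9.90% of female libraries, and the part of this gap in the sex differences was not tested. Female control 3, the shallowest library, and male KlKl 3 stood apart for these genes, and many results that rest on them are also given without them. Female control 3 was also the oldest control, at 57 days, where the other controls were 46 to 48 days old.

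The promoters of 3 members are shown for their rank by sex difference. Atp5l and Atp5h were among the 10 members with the most negative male minus female difference in controls. Sdha was among the 4 with the most positive, but its difference did not pass in controls or in KlKl. They are not typical of the family, since 18 of 76 members with a promoter held none of the letters searched and 25 held 1 kind. Each line gives the 250 bases before the RefSeq transcription start, 5′ to 3′ on the gene's strand, in build GRCm38.p6. All 3 lie on the minus strand, at chr9:44920743-44920992 for Atp5l, chr11:115419920-115420169 for Atp5h and chr13:74350241-74350490 for Sdha. Capitals mark matches on either strand to the letters searched, and overlapping matches are merged.
Atp5l: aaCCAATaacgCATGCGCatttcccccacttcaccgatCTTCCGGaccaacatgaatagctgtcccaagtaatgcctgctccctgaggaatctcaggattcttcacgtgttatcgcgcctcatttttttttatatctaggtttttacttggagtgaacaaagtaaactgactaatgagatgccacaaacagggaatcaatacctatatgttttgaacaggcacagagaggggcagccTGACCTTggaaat
Atp5h: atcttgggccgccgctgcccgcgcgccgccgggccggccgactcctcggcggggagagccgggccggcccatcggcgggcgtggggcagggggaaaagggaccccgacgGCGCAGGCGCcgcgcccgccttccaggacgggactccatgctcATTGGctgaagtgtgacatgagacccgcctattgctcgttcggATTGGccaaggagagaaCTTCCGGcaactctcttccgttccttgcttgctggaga
Sdha: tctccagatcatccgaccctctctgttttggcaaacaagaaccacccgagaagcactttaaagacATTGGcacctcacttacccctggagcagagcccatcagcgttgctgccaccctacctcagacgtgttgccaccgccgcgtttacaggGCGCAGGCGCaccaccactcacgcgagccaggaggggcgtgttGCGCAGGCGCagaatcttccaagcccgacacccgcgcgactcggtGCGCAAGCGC

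The letters searched belong to regulators known for mitochondrial genes: GCGCATG for nuclear respiratory factor NRF1, CCGGAAG for the ETS factor GABP, AAGGTCA for oestrogen-related receptors, AAGATGG for YY1 and CCAAT for the CCAAT box. A longer form of the NRF1 core with any base in its middle was added after the data were seen and can overlap the first. Over 300 bases (250 before to 50 after the start), 76 of 93 member symbols had a RefSeq promoter. Atp5l held an NRF1 match, an ETS match, an oestrogen-related receptor match and a CCAAT box, while Sdha held 3 matches to the longer NRF1 form. Matches to GCGCATG occurred in 19.7% of members and 4.41% of all promoters in the table. The shares were 25% and 5.19% for the longer NRF1 form, 25% and 9.93% for the ETS letters, 10.5% and 5.38% for the oestrogen-related receptor letters, and 15.8% and 7.28% for YY1. CCAAT occurred in 43.4% of members and 41.1% of all promoters. Among protein-coding genes of the table the shares were 6.40% for GCGCATG, 8.88% for the longer form, 15.7% for ETS, 4.27% for oestrogen-related receptors, 7.47% for YY1 and 42.1% for CCAAT. The 54 members lower in males in controls and the 19 other tested members held GCGCATG in 20.4% and 10.5%, the longer form in 22.2% and 26.3%, ETS in 27.8% and 21.1%, oestrogen-related receptor letters in 13.0% and 5.26%, YY1 in 18.5% and 10.5% and CCAAT in 42.6% and 47.4%. The smaller of these sets is few genes, with 1 to 9 matches per motif. These are matches of letters and not binding sites.

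In RPKM over nuclear protein-coding reads (reads per kb of exon, scaled to those reads), averaged over the 16 libraries, the most abundant member was Cox6a1 at 1172, followed by Cox8a at 1056, Cox4i1 at 836, Cox6b1 at 806 and Uqcr10 at 742. The first 4 are subunits of cytochrome c oxidase (complex IV), the enzyme that hands electrons to oxygen, and Uqcr10 is a small subunit of complex III. The median level per complex was 127 for complex I, 205 for complex II, 351 for complex III, 234 for complex IV and 235 for complex V. Complex IV has subunit pairs with one common form and one form known from heart, skeletal muscle, testis, lung or brown fat, and in this kidney RNA the common form was the higher one in each pair. Cox6a2 was at 2.90 beside Cox6a1 at 1172, and Cox6b2 was at 13.0 beside Cox6b1 at 806. Cox7a1 was at 49.1, Cox7a2l at 141 and Cox7a2 at 451. Cox8b was at 6.19 beside Cox8a at 1056, and Ndufa4l2, the hypoxia-associated paralog of the complex IV subunit Ndufa4, was at 4.43 beside 539. Cox4i2, the lung and oxygen-sensitive form of Cox4i1, held 5 to 25 reads per library and was not tested.

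Of the 94 members, 88 reached a TPM of 1 in at least 4 libraries and were tested. Those not tested were Cox4i2, Atp5g2 (a form of the c ring subunit), the second Atp5o entry and the assembly factors Ndufaf2, Ndufaf5 and Ndufaf6. A gene that reached this level in 1 group alone had to differ, so the counts describe the 88 and not all members. All adjusted p-values are limma's, by the Benjamini-Hochberg method over the 8059 genes tested, with a threshold of 0.05.

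KlKl against control asks whether the subunit genes differed with renal failure. No subunit gene passed in either sex, over both sexes, or in the difference of the KlKl effects between the sexes. Over all genes tested, 0.0248% were called in males, 0.0124% in females, 0.0248% over both sexes and 0% for the difference between the sexes, so few genes of any kind passed. At an unadjusted p under 0.05 the counts of members were 0 in males, 2 in females (Ndufab1 and Cox7a1, both lower), 3 over both sexes (Ndufb4, Ndufa1 and the assembly factor Ndufaf1, all lower) and 0 for the difference, beside 4.91%, 3.59%, 5.67% and 2.51% of all genes. Of all genes, 2.62% were lower at that threshold in males, 1.46% in females, 2.92% over both sexes and 1.34% for the difference. Limma voom on recovered reads called 0 members in these 4 comparisons too. The groups did not overlap for 0 members in males and for Ndufa1 (lower) and Ndufv1 (higher) in females, beside 4.43% and 1.89% of all genes (2.23% lower and 2.20% higher in males, 1.09% lower and 0.794% higher in females). Kl passed in both sexes.

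The differences leaned to lower values in KlKl, by a small amount. In males 65 of 88 members had a negative difference with a median of -0.04, in females 69 with a median of -0.12, and over both sexes 73 with a median of -0.08, while the medians of all genes tested lay at 0.00. The lean rested on 2 libraries. Without male KlKl 3 the male median was 0.03 with 23 of 88 negative. Without female control 3 the female median was -0.04 with 58 negative. Without both, the median over both sexes was -0.01 with 46 of 88 negative. On the deposited scale, which moved the median of all genes up by 0.18 in males, 0.11 in females and 0.14 over both sexes, only 4, 32 and 11 of 88 members were negative; relative to that shift the member medians were 0.00, -0.07 and -0.03.

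**Figure D1:**
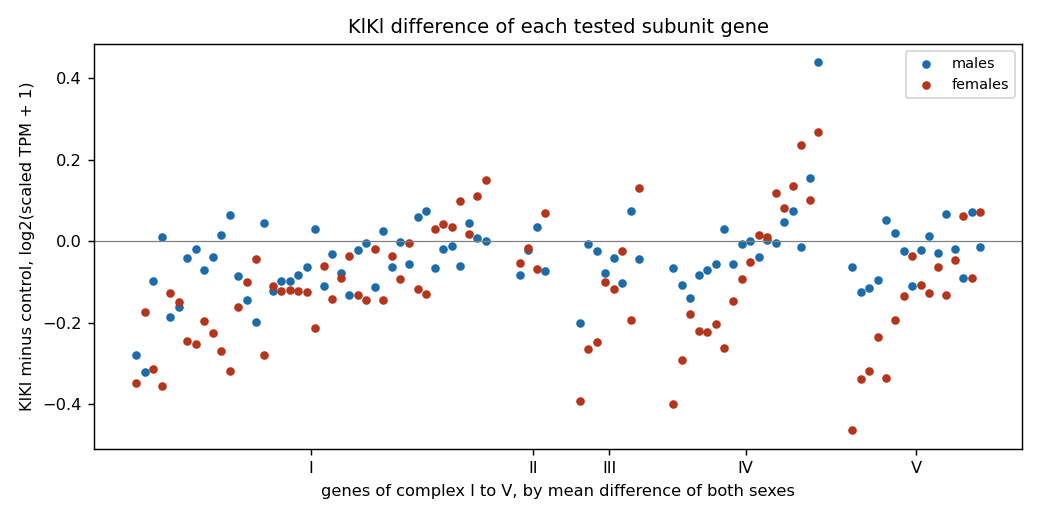
KlKl minus control difference on the log2(scaled TPM + 1) scale (vertical axis) for each of the 88 tested genes, in males (blue) and females (red), ordered along the horizontal axis by the mean of both sexes within complexes I to V. Most points lie just below 0, 65 of 88 in males and 69 of 88 in females, and none of the differences passed.

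The members at the ends of this range show how far the values overlapped. Ndufb4, an accessory subunit of complex I, had the most negative difference over both sexes, -0.31 ± 0.12 (SE, limma adjusted p = 0.80). Its scaled TPM was 4.89, 4.13, 3.78 and 3.92 in controls and 3.26, 4.32, 2.30 and 3.39 in KlKl among males. In females it was 5.99, 5.68, 10.5 and 6.50 in controls and 5.57, 5.81, 4.77 and 4.94 in KlKl. The groups overlapped in both sexes, and female control 3 was the highest of the female controls. Uqcrq, a small subunit of complex III, followed at -0.30, Atp5e, the epsilon subunit of the F1 head of ATP synthase, at -0.26 and Ndufa1, a complex I accessory subunit, at -0.25. Without female control 3 the Atp5e difference was -0.11, and without male KlKl 3 that of Ndufa1 was -0.16. Ndufa1 is a case of non-overlap in females, with 39.0, 37.5, 36.5 and 38.1 scaled TPM in controls and 33.2, 33.7, 34.3 and 32.3 in KlKl. Its female difference was -0.17 ± 0.16 (SE, limma adjusted p = 0.95), with 4 of 4 KlKl females below every female control.

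At the other end stood complex IV genes. Cox6b2, the testis form of Cox6b1, had a difference over both sexes of 0.35 ± 0.26 (SE, limma adjusted p = 0.88). Its scaled TPM ran from 2.81 to 10.0 in male KlKl and from 2.19 to 5.69 in male controls, so the groups overlapped. Cox7a2l, known for its part in joining complexes III and IV into supercomplexes, was at 0.13, Cox6a2 at 0.11 and Cox4i1 at 0.10, and none of these passed. With 1 library left out Cox6a2 ran from 0.02 (without male control 4) to 0.26 (without male control 3). Without female control 3 Cox7a2l was at 0.23 and Cox6b2 at 0.18.

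By complex, the median difference over both sexes was -0.09 for the 42 genes of complex I, -0.02 for the 4 of complex II, -0.08 for the 8 of complex III, -0.04 for the 18 of complex IV and -0.07 for the 16 of complex V. In males the 13 subunits encoded in mitochondrial DNA, which are partners of the nuclear subunits in complexes I, III, IV and V, were at -0.34 to -0.75 with a median of -0.48, and in females at -0.37 to 0.38 with a median of 0.02. None of the 13 passed in either sex. At an unadjusted p under 0.05, 8 of the 13 were lower in males and 0 in females, beside 2.62% and 1.46% of all genes. The groups did not overlap for 2 of the 13 in males, both lower, and for 0 in females. Of all genes, 2.23% in males and 1.09% in females were lower without overlap. Mitochondrially encoded genes held 13.0% to 17% of reads in controls and 9.71% to 14.1% in KlKl among males. Among females they held 13.0% to 19.6% in controls and 14.3% to 17.4% in KlKl, and these ranges overlapped within each sex.

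**Figure D2:**
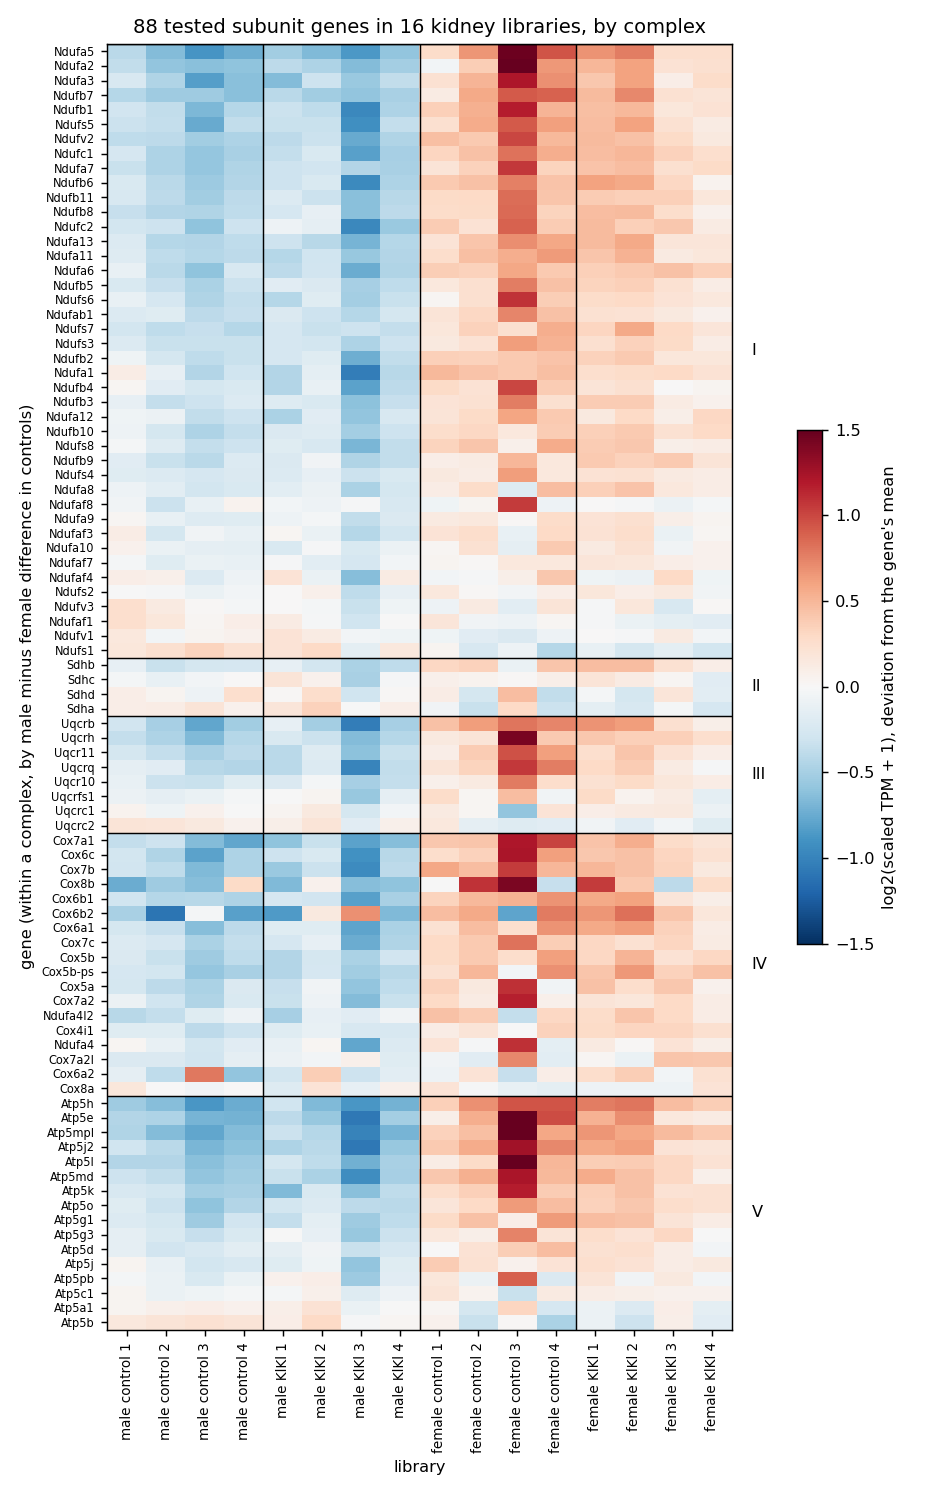
Heat map of the 88 tested genes (rows, by complex) in the 16 libraries (columns, by group), coloured by the log2(scaled TPM + 1) value less the gene's mean over the libraries, with colours capped at 1.5 either way. Most rows are low in all 8 male libraries and high in all 8 female libraries, with female control 3 the highest, and no such step separates KlKl from control.

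Males against females is the other comparison of the design. Among controls, 63 of the 88 tested members were lower in males and 2, Ndufs1 and Atp5b, were higher, with a median difference of -0.68. Of all genes tested 48.5% were called, 23.8% lower and 24.8% higher, and their median was 0.00. In KlKl mice 63 members were lower and 1, Ndufs1, was higher, with a median of -0.63, where 36.6% of all genes were called, 17.8% as lower and 18.9% as higher. The groups did not overlap for 64 members in controls (61 of them lower) and 63 in KlKl (62 lower), beside 43.5% (20.5% lower, 22.9% higher) and 39.9% (19.3% lower, 20.6% higher) of all genes. At an unadjusted p under 0.05 there were 65 lower and 3 higher members in controls and 65 and 2 in KlKl, beside 56.0% and 47.4% of all genes, 27.5% and 23.2% as lower. The members that were lower were the same 63 in both comparisons, which is 100% of each list. Their means come from different libraries, but both were tested in 1 fit with a shared estimate of the spread, so the lists are not independent. For all genes, 1269 were lower in both, 66.3% of those lower in controls and 88.6% of those lower in KlKl. No member passed the test of whether its sex difference differed between controls and KlKl, where 57 of 88 values were positive with a median of 0.07. Without female control 3 the median was -0.0009 with 44 of 88 negative, and without male KlKl 3 it was 0.16 with 19 negative.

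On the deposited scale, which moved the median of all genes to 0.26 in controls and 0.33 in KlKl, 38 members were lower and 10 higher in controls, and 15 were lower and 10 higher in KlKl. Of all genes on that scale, 8.30% were lower and 44.3% higher in controls and 3.72% and 50.9% in KlKl. The median of the members less that of all genes was then -0.56 and -0.49. By role on that scale, 18 of 30 complex I accessory subunits, 4 of 5 small subunits of complex III, 5 of 11 common accessory subunits of complex IV and 5 of 5 membrane subunits of complex V were lower in male controls, and 8, 0, 1 and 3 in KlKl. Among the members named with values, Sdhb (-0.10), Cox6a1 (-0.42), Cox7a2 (-0.29) and Cox4i1 (-0.03) no longer passed in controls on that scale. In KlKl the same held for Sdhb (-0.17), Uqcrb (-0.48), Cox6a1 (-0.34), Cox6b1 (-0.35), Atp5e (-0.54), Cox7a2 (-0.07) and Cox4i1. With heterozygous controls alone Sdhb (-0.46), Cox4i1 (-0.34) and Cox7a2 (-0.60) no longer passed in controls. Members held 1.98% to 2.40% of reads in male and 2.50% to 3.34% in female libraries, without overlap. The median log2 level of the members ran from 3.86 to 4.32 in males and from 4.56 to 5.21 in females.

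In complex I, which takes electrons from NADH, 28 of 30 accessory subunits were lower in males in controls, all but Ndufa10 and Ndufv3, and the same count held in KlKl. Ndufa5 had the most negative difference of any member among controls. Its scaled TPM was 11.3, 9.30, 7.81 and 8.74 in male controls and 18.6, 24.7, 44.0 and 30.2 in female controls, and it was 7.96 to 10.3 in male KlKl and 18.3 to 26.5 in female KlKl. All 8 males lay below all 8 females. The difference was -1.51 ± 0.21 in controls (SE, limma adjusted p = 8.28e-05) and -1.14 ± 0.21 in KlKl (limma adjusted p = 0.00111). Ndufa2 and Ndufa3, also accessory subunits, followed at -1.22 and -1.20 in controls, and Ndufb7 was at -0.91 in KlKl.

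Of the 7 core subunits of complex I measured here, which carry the flavin and iron-sulphur centres, 4 were lower in males (Ndufv2 at -1.02, Ndufs7 and Ndufs3 at -0.68 and Ndufs8 at -0.57), and Ndufs1 was higher. Ndufs1, the largest iron-sulphur subunit, was at 5.29, 5.64, 6.06 and 5.56 scaled TPM in male controls and 4.74, 3.74, 4.31 and 3.17 in female controls. The control groups did not overlap, with a difference of 0.42 ± 0.11 (SE, limma adjusted p = 0.00502), which was lost with heterozygous controls alone (0.39, limma adjusted p = 0.054). In KlKl the male values of 4.08 to 5.92 overlapped the female values of 3.64 to 4.20, and the difference was 0.33 (limma adjusted p = 0.0265). The KlKl call was lost without male KlKl 1 (0.30), 2 (0.27) or 4 (0.32) or without female KlKl 2 (0.31) or 4 (0.30), with limma adjusted p from 0.057 to 0.086. Of the 5 assembly factors tested, which help build complex I without staying in it, only Ndufaf7 passed, at -0.20 in controls and -0.25 in KlKl.

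Complex II, succinate dehydrogenase, also a citric acid cycle enzyme, did not move as a block. Sdhb, its iron-sulphur subunit, was lower in males, at 15.7, 13.4, 14.2 and 14.2 scaled TPM in male controls and 21.5, 22, 15.9 and 23.3 in female controls. No male control reached the lowest female control, and the difference was -0.48 ± 0.13 (SE, limma adjusted p = 0.00594), with -0.62 in KlKl (limma adjusted p = 0.00203). Sdha, the flavin subunit, was at 0.22 in controls and 0.32 in KlKl, with limma adjusted p of 0.16 and 0.060. Without female control 3, whose Sdha value of 19 was above every male control, Sdha passed as higher in males at 0.35 in controls (limma adjusted p = 0.00887) and 0.32 in KlKl (limma adjusted p = 0.0105). It also passed in KlKl without male KlKl 3 (0.37, limma adjusted p = 0.042) and, on the deposited scale, in both comparisons (0.59 and 0.78). The membrane anchors Sdhc (-0.10 and -0.11) and Sdhd (0.09 and 0.06) did not pass in the main fit in controls or in KlKl. Their sign changed under some alternatives. On the deposited scale Sdhd passed as higher in males in both comparisons. With library weights Sdha passed in both comparisons and Sdhd in controls.

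In complex III, which passes electrons to cytochrome c, all 5 small subunits were lower in males in both comparisons. Uqcrb was at 23.5, 20.2, 16.4 and 19.8 scaled TPM in male controls and 39.4, 45.1, 51.1 and 48.3 in female controls, a difference of -1.17 ± 0.18 (SE, limma adjusted p = 0.000201). Uqcrh was at -1.02, Uqcr11 at -0.89, Uqcrq at -0.88 and Uqcr10 at -0.55. The 3 larger subunits did not pass: the core proteins Uqcrc1 and Uqcrc2 were at 0.07 and 0.23 in controls and the Rieske protein Uqcrfs1 at -0.27. Uqcrc2 passed as higher in males in controls without female control 1 (0.32) or male KlKl 3 (0.23). On the deposited scale and with library weights Uqcrc2 passed in both comparisons. In controls it also passed with a filter of TPM 5, without the mean-variance trend and with library-name series as a term. In KlKl it passed without female control 3 and male KlKl 3 together. Cyc1, the cytochrome c1 subunit that the name rule leaves out, was at 0.30 (limma adjusted p = 0.070).

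In complex IV, 9 of 11 common accessory subunits were lower in males in both comparisons, all but Ndufa4 and Cox8a. Cox6c at -1.11, Cox7b at -1.09 and Cox6b1 at -0.91 had the most negative values among them in controls. Cox6a1, the most abundant member, was at -0.81 in controls and -0.82 in KlKl, Cox7a2 at -0.68 and -0.54, and Cox4i1 at -0.43 and -0.49. Cox7a2 in KlKl lay at the threshold (limma adjusted p = 0.0459) and was lost when any library but female control 2, 3 or 4 or male KlKl 2 was left out, with differences of -0.57 to -0.44. Cox5b-ps, the processed copy, was lower in males in both comparisons as well. Cox8a did not follow them, and on the deposited scale it passed as higher in males in controls. It was at 179.7, 160.2, 153.1 and 159.3 scaled TPM in male controls and 182.9, 157.6, 146.7 and 143.6 in female controls, so the sexes overlapped, and its difference was 0.05 ± 0.12 (SE, limma adjusted p = 0.74).

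Of the 6 isoforms and paralogs tested, Cox7a1 and Ndufa4l2 were lower in males in both comparisons. Cox7a1, known from heart and skeletal muscle, was at 5.46, 5.67, 4.29 and 3.83 scaled TPM in male controls and 10.0, 10.1, 18.3 and 15.7 in female controls, a difference of -1.29 ± 0.18 (SE, limma adjusted p = 8.16e-05) without overlap. The Ndufa4l2 differences of -0.45 and -0.49 were lost on the deposited scale (-0.23 in both) and, in controls, without male control 1 (-0.40) or 2 (-0.42) or female control 1 (-0.37), 2 (-0.39) or 4 (-0.42), and in KlKl without male KlKl 1 (-0.39) or female KlKl 2 (-0.44). Cox6b2 (-0.86 and -0.69), Cox8b (-0.94 and -0.79), Cox7a2l (-0.30 and -0.24) and Cox6a2 (-0.05 and -0.30) did not pass. In controls Cox6b2 passed without female control 3 (-1.21), where it was lowest among the female controls, without male control 3 (-1.05) or without male KlKl 3 (-0.86), and in KlKl without male KlKl 3 (-0.97). Cox8b in controls passed without male control 4 (-1.16), female control 1 (-1.12) or 4 (-1.25), or female KlKl 1 or 3 (-0.94 each). Cox6b2 and Cox8b also both passed in controls with limma voom on recovered reads and with library weights. Cox6b2 passed there with age as a term and Cox8b with a pseudocount of 0.1. In KlKl both passed with library weights. Cox8b, known from brown fat and muscle, held 0 to 58 reads per library, with the most in female KlKl 1 (58), female control 2 (56) and female control 3 (46). Defining fat markers were also sparse and uneven. Ucp1, the uncoupling protein of brown fat, held 0 to 90 reads, Cidea 0 to 66, Adipoq 1 to 96 and Plin1 2 to 64. The 7 fat genes, Cox8b included, summed in males to 9.06 to 32.0 scaled TPM in controls and 7.94 to 24 in KlKl, and in females to 18.3 to 36.5 in controls and 18.2 to 36.9 in KlKl. Most of these sums came from Fabp4 and Cfd. In male control 3, where the sum was 9.06, Fabp4 alone was at 8.48. Ucp1, Cidea, Adipoq and Plin1 were each at most 0.503 scaled TPM in any library. The part of the fat genes in the Cox8b and Cox7a1 values was not tested. The muscle genes Ckm, with 0 to 5 reads, and Acta1, with 0 to 2, were at or near 0.

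In complex V, all 5 small membrane subunits were lower in males in both comparisons. Atp5mpl was at -1.35 in controls, Atp5j2 at -1.23, Atp5l at -1.17, Atp5md at -1.11 and Atp5k at -0.92. Atp5l, the g subunit and one of those linked to pairing of ATP synthases, was at 12.6, 12.5, 10.9 and 11.6 scaled TPM in male controls and 18.9, 21.5, 59.6 and 25.1 in female controls. The high value is female control 3, and the groups did not overlap with or without it. Of the 4 peripheral stalk genes tested, Atp5h, Atp5o and Atp5j were lower in males. Atp5h was at 30.3, 28.2, 23.7 and 26.2 in male controls and 57.2, 72.0, 86.4 and 86.4 in female controls, a difference of -1.43 ± 0.16 (SE, limma adjusted p = 2.03e-05), and -1.23 in KlKl, the most negative value there. Both tested c ring genes, Atp5g1 and Atp5g3, were lower too.

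The F1 head of ATP synthase was split. Its small subunits Atp5e at -1.42 and Atp5d at -0.47 were lower in male controls, while the catalytic beta subunit Atp5b was higher and the alpha and gamma subunits Atp5a1 (0.11) and Atp5c1 (-0.05) did not pass. Atp5b was at 250.5, 257.6, 263.6 and 256.8 scaled TPM in male controls and 235.0, 178.1, 226.8 and 161.5 in female controls. All 4 male controls lay above all 4 female controls, with a difference of 0.38 ± 0.13 (SE, limma adjusted p = 0.0297). The call was lost without male control 2 or 4 (0.38 each) or 3 (0.37), without female control 2 (0.32) or 4 (0.28), after the length correction (0.28), with heterozygous controls alone (0.36) and with the control libraries fitted alone (0.38). In KlKl the Atp5b difference was 0.22 (limma adjusted p = 0.20) and the sexes overlapped. Atp5b passed there as higher in males on the deposited scale and with library weights. The inhibitor of ATP synthase, listed as Atpif1 and outside the name rule, was at -0.35 in controls and -0.44 in KlKl (limma adjusted p = 0.11 and 0.061).

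The members also differed among themselves by the size of their coding sequence, measured as the longest coding sequence per gene in GENCODE M21. The 50 tested members under 450 coding bases had a median male minus female difference of -0.84 in controls, with 49 negative. The 4 members of 1500 bases or more, Ndufs1, Sdha, Atp5b and Atp5a1, had a median of 0.30 with 0 negative. Other genes showed the same order at a smaller size: 621 genes under 450 bases had a median of -0.33 and 1902 genes of 1500 or more had 0.11. In KlKl the corresponding medians were -0.76 and 0.27 for members and -0.27 and 0.11 for other genes. Across genes within this contrast, Spearman's rho with coding length was 0.63 over 87 members and 0.34 over 6101 genes in controls, given as a description because the genes share the same libraries.

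**Figure D3:**
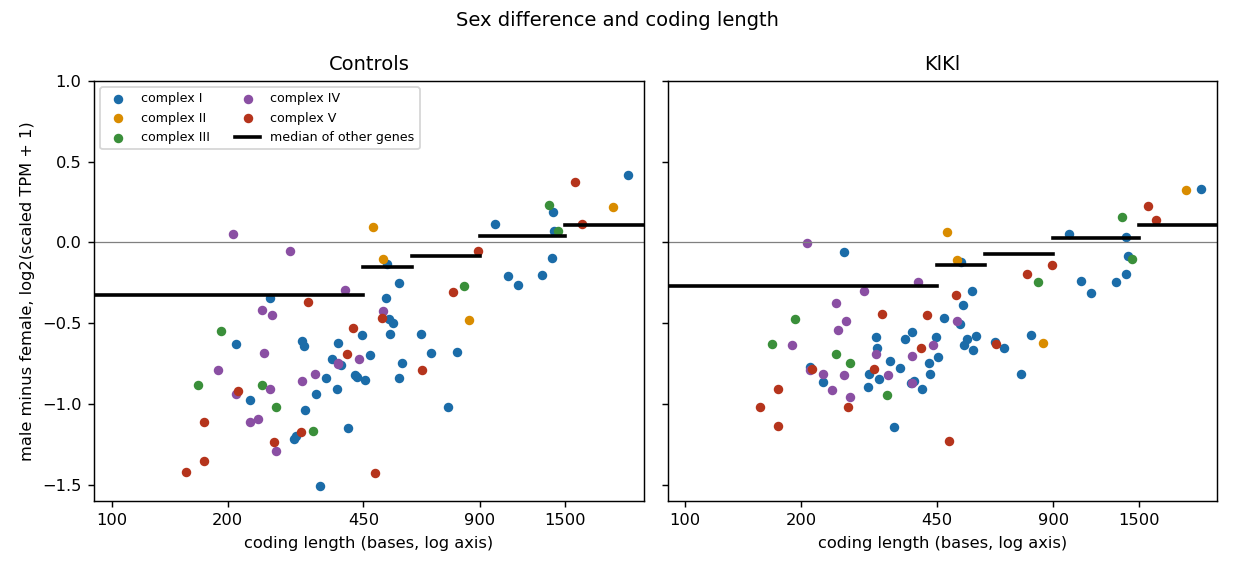
Male minus female difference on the log2(scaled TPM + 1) scale (vertical axis) against coding length in bases (horizontal log axis) for 87 members, in controls (left) and KlKl (right), coloured by complex. Black bars are the median of other tested genes in each length bin, which rises from -0.33 to 0.11 in controls, and most members under 900 bases lie below the bar of their bin.

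When the trend with coding length over all genes was removed, as an alternative chosen after seeing the data, 51 members were lower and 2 higher in controls and 45 were lower and 1 higher in KlKl, of 87. Of all 6101 genes in that fit, 20.5% were lower and 22.1% higher in controls, and 13.6% and 15.6% in KlKl. The member medians less those of all genes were then -0.39 and -0.36. Among the members named with values, Atp5b, Cox4i1 and Cox7a2 no longer passed in controls, and Cox8a passed there. In KlKl Atp5e, Ndufs1, Cox7a2 and Ndufa4l2 no longer passed. In that fit 24 of 29 complex I accessory subunits, 3 of 5 small subunits of complex III, 6 of 11 common accessory subunits of complex IV and 5 of 5 membrane subunits of complex V were lower in male controls, and 23, 1, 6 and 4 in KlKl. Without the length correction, the 77 cytosolic ribosomal protein genes, another family of short and abundant transcripts, had a median of -0.79 in controls. Of the 74 tested, 67 were negative. On the same uncorrected values the medians were -0.68 for the members, -0.12 for 34 tested proteasome subunits and -0.23 for 71 tested mitochondrial ribosomal proteins.

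The size difference was visible library by library. Members under 450 coding bases less members of 900 or more, each as the median deviation from the gene's mean over libraries, was -0.56 to -0.35 in the 8 male libraries and 0.15 to 0.98 in the 8 female libraries. The same quantity over other genes was -0.25 to -0.09 in males and 0.09 to 0.50 in females, so the order of the sexes was shared. Female control 3 held the highest value of both, 0.98 and 0.50. Within groups, pairs of members were positively correlated over the 16 libraries after removal of group means, with a median r of 0.45 over 3828 pairs, 0.60 where both were under 450 bases and 0.23 where one was under 450 and the other 900 or more. These correlations are not given without female control 3 and male KlKl 3, nor for other genes. Short members deviated by 0.90 in female control 3 (0.26 to 0.47 in other female controls) and by -0.65 in male KlKl 3 (-0.42 to -0.23 in other male KlKl).

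**Figure D4:**
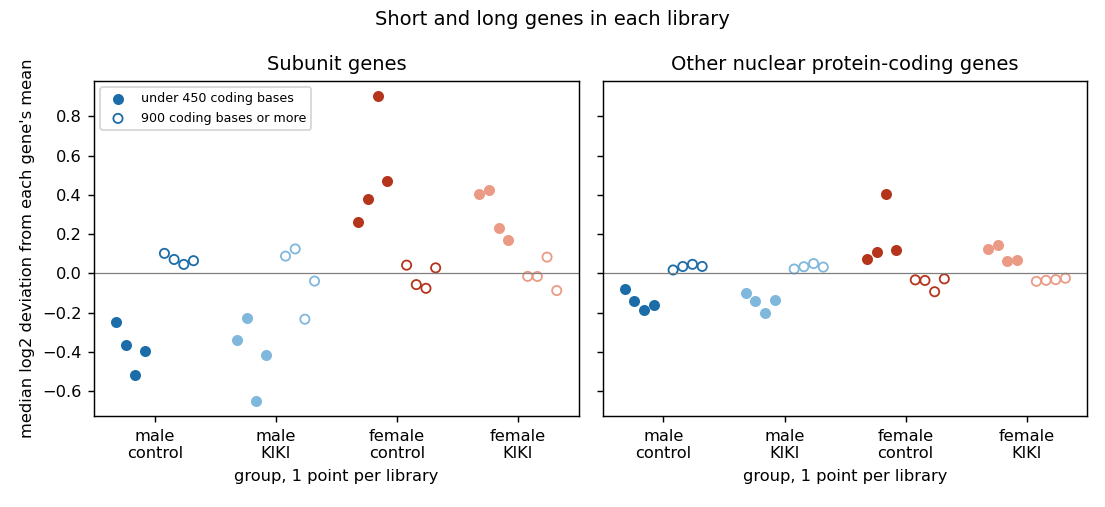
Median deviation from each gene's mean on the log2(scaled TPM + 1) scale (vertical axis) in each of the 16 libraries (1 point each, by group along the horizontal axis) for genes under 450 coding bases (filled) and of 900 or more (open), in subunit genes (left) and other nuclear protein-coding genes (right). Short members separate the 8 male from the 8 female libraries, and the highest short-member value, 0.90, is female control 3.

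Many subunit genes have processed copies elsewhere in the genome, and reads of parent and copy may be hard to tell apart. The first 90 coding bases of 3 pairs, from GENCODE M21, show how alike they are, with capitals marking bases that differ within the pair.
Cox6c: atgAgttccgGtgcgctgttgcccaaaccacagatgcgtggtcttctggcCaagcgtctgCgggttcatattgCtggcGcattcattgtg
Cox6c2: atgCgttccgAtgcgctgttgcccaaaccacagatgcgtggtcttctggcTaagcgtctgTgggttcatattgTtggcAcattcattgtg
Cox7c: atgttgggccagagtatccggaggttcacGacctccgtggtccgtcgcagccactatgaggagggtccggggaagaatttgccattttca
Cox7c-ps1: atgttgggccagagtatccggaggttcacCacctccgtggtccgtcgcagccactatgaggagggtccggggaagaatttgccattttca
Ndufb4: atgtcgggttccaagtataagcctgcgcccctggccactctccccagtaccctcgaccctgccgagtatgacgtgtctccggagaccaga
Ndufb4c: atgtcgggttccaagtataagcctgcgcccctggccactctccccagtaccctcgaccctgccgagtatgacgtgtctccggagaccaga

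Over the aligned coding sequence, Ndufb4c matched Ndufb4 at 100% of 387 bases, Cox7c-ps1 matched Cox7c at 98.9% of 189 and Cox6c2 matched Cox6c at 96.9% of 228. The share of the pair's reads assigned to the copy had a median of 80.3% for Ndufb4c, 17.9% for Cox6c2 and 27.3% for Cox7c-ps1 over the 16 libraries, and 34.2% for Cox5b-ps. Values of these parent genes are therefore uncertain to the extent that the counting split reads between copies. Of 18 pairs examined, the copy's share separated the sexes without overlap in 4. The Cox7c-ps1 share was higher in females, 18.7% to 25.0% in the 8 male and 29.5% to 47.2% in the 8 female libraries. The share was higher in males for the copies Ndufa12-ps (53.8% to 68.3% against 31.0% to 51.4%), Ndufs6b (15.9% to 18.7% against 9.43% to 14.7%) and Atp5c1-ps (1.07% to 1.67% against 0.309% to 0.683%). A higher share in the copy leaves fewer of the pair's reads to the parent, and its part in the sex difference of each parent was not tested singly. The Ndufb4c share was 69.8% in female control 3 and 78.6% to 83.1% in the other 15 libraries, and Ndufb4 itself was highest in that library. With the reads of named copies added to their parents, limma voom called 63 members lower and 2 higher in males in controls and 62 lower and 1 higher in KlKl. The share of all genes called in that fit is not given here. In the main fit it was 48.5% in controls and 36.6% in KlKl.

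**Figure D5:**
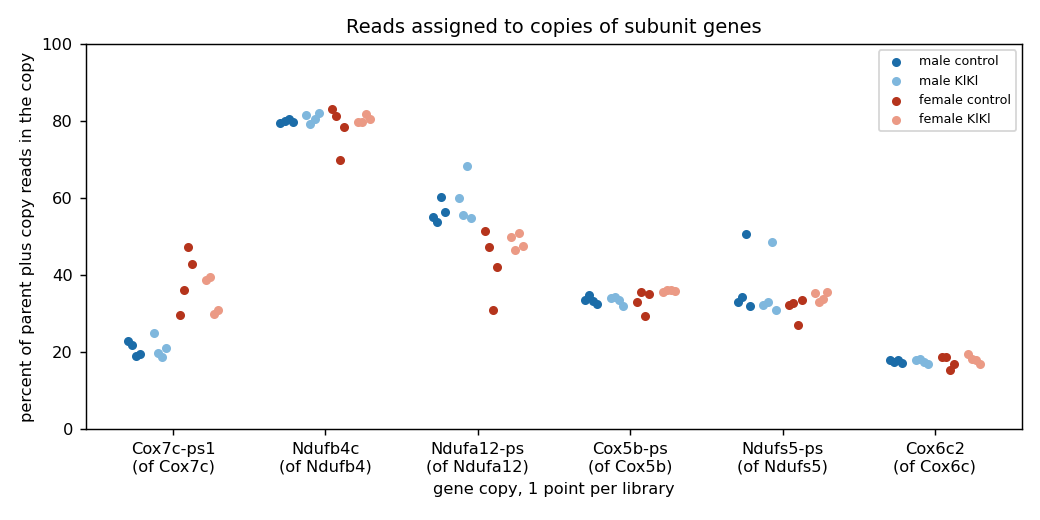
Percent of the reads of parent plus copy that were assigned to the copy (vertical axis) for 6 pairs of parent and copy (horizontal axis), 1 point per library, coloured by group. The sexes separate for Cox7c-ps1, with females higher (18.7% to 25.0% in males, 29.5% to 47.2% in females), and for Ndufa12-ps, with males higher (53.8% to 68.3% and 31.0% to 51.4%), and overlap for the other 4.

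Other genes of the pathway were counted for the same sex comparison in controls, where 48.5% of all genes were called (24.8% higher, 23.8% lower). Of the 13 mitochondrially encoded subunits, mt-Nd4l was higher in males (1.34) and mt-Nd3 (-1.22), mt-Co2 (-0.56) and mt-Atp6 (-0.51) were lower, with a median of -0.19. In KlKl 6 of the 13 were lower, with a median of -0.56, where 36.6% of all genes were called, 17.8% as lower. Another list held 9 tested genes for cytochromes c and c1 and for mitochondrial carriers and channels. Of these, Cycs (-0.83), Slc25a4 (-0.70), Vdac3 (-0.40) and Vdac2 (-0.39) were lower and Ucp2 (0.85) was higher. Of 30 tested assembly factors outside the name rule 6 were higher and 7 lower, among them Cox17 at -1.12 and Cox15 at 0.71. Of 17 citric acid cycle genes 5 were higher, with Ogdh at 0.64, and Pdhb was lower at -0.32. Of the 71 mitochondrial ribosomal proteins, 34 were lower and 3 higher.

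None of the 8 tested regulators of mitochondrial biogenesis passed in any of the 6 comparisons. Their differences between the sexes in controls ran from -0.09 to 0.30, with Esrra at 0.30, Gabpa at 0.14 and Tfam at 0.09. The coactivators Ppargc1a and Ppargc1b and the factor Nrf1, all with long introns and so a low deposited TPM, did not reach the filter. Ppargc1a in males had 0.664 ± 0.0754 scaled TPM in controls and 0.763 ± 0.145 in KlKl, and in females 0.898 ± 0.111 in controls and 0.832 ± 0.145 in KlKl (mean ± SD, n = 4). In controls its values were 0.581 to 0.763 in males and 0.779 to 1.04 in females, without overlap. Of all genes tested, 20.5% were lower in male controls without overlap. In KlKl the Ppargc1a values of 0.612 to 0.956 in males overlapped those of 0.724 to 1.03 in females. Ppargc1b was at 0.114 ± 0.0110 in male and 0.188 ± 0.0563 in female controls, and Nrf1 at 0.108 ± 0.0100 and 0.111 ± 0.0205.

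Markers of kidney cell types were counted for the sex comparison in controls, where 48.5% of all genes were called. Of 13 proximal tubule markers 6 were higher in males, with a median of 0.35, and their summed level was 857 to 1146 scaled TPM in male and 566 to 1242 in female controls. Of 4 tested principal cell markers 2 were lower (list sum of 6 genes 62.8 to 106.7 in male and 86.2 to 158.4 in female controls). Of 5 tested fibroblast and mural markers 3 were lower (sum of 6 genes 5.66 to 8.47 and 10.4 to 22.8). Of 3 tested injured tubule genes Spp1 (-1.57) and Clu (-0.54) were lower (sum of 6 genes 73.1 to 119.3 and 254.6 to 301.3). That sum was mostly Spp1, with 9616 to 30773 reads per library. Havcr1, on the same list but below the filter, went the other way with 2 to 236 reads. It was at 0.0787 ± 0.0898 scaled TPM in male and 0.0163 ± 0.0101 in female controls (mean ± SD). Other lists had 2 of 6 thick ascending limb and 1 of 4 distal convoluted tubule markers lower in males. The same held for 1 of 5 intercalated cell, 1 of 3 podocyte and 1 of 6 macrophage and dendritic cell markers. In these 5 lists 0 were higher, and 23.8% of all genes were lower. Of 2 tested endothelial and 4 tested erythroid genes 0 passed. The part of these cell types in the sex difference of the subunit genes was not tested.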

How the data were processed

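Kidney polyA RNA of 16 mice was sequenced and 1 table was deposited. Its values are TPM, made by the authors with Partek on build mm39 per the submitters' processing notes. The aligner, the counting rule, its use of strand and the annotation release were each not given in the sources used here. Tested on the values, the deposited TPM equal reads plus 0.0001 divided by gene span, scaled to a fixed total. Reads were recovered from this, and 81.23% of values under 20 reads were whole within 0.1. Depths and read shares rest on that inference.

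TPM were divided by a median-ratio factor over tested nuclear protein-coding genes, and genes with TPM of at least 1 in 4 libraries were kept (8059). Limma 3.58.1 in R 4.3.3 fitted group means to log2(scaled TPM + 1) with a mean-variance trend and 12 residual degrees of freedom. It was tested on simulated data. p-values measure the spread between animals. Exon and coding lengths are from GENCODE M21 (GRCm38), matched by identifier; promoters are RefSeq's (GRCm38.p6). Coordinates of that build were not mixed with the table's.

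Members, lists and the rule for naming were chosen with earlier results of these data known. Named were the 10 largest passing members per direction in each sex comparison, the 4 extremes at either end, the Sdh genes, isoform pairs and 6 regulators. Members in counts of 5 or fewer, other members given by role, and the sequences shown were chosen after values were seen. Alternatives were the deposited scale, a scaling over all genes, a pseudocount of 0.1, no filter, a filter of TPM 5, no trend, library weights, a replicate block, library-name series or age as a term, heterozygous controls alone, the libraries of the contrast alone, limma voom on recovered reads, and each library left out. A coding-length correction and the addition of copies to their parents were chosen after seeing the data. Computation used Python 3.11.15 and pandas 2.3.3.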

Additional observations from a re-analysis of the deposited data

Results flagged for a closer look

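A sample was singled out when its gap to the nearest of the other 3 libraries of its group took up most of the group's range (Dixon's criterion at 95%). Over 160 groups of values 13 met it, where chance gives about 1 in 20. No explanation was tested.

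Female control 3, the shallowest library with 8209463 reads, was high for Atp5l (59.6 scaled TPM, others 18.9 to 25.1), Atp5md (40.4, others 22.6 to 24.7), Atp5mpl (75.3, others 33.6 to 39.5), Cox7a2 (123.5, others 57.2 to 67.4), Cox7a2l (13.8, others 6.97 to 7.70) and Ndufb4 (10.5, others 5.68 to 6.50). Its median log2 level of complex IV was 6.50, with 5.78 to 5.83 in the other female controls. This mouse was also the oldest control, at 57 days.

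Other single values were Cox8a in female KlKl 4 (183.0, others 151.0 to 151.5), Uqcrc2 in female control 1 (12.3, others 9.44 to 9.81) and Ndufa2 in male control 1 (68.8, others 57.4 to 58.9). The median log2 level of complex I was 3.54 in male control 1, with 3.34 to 3.36 in the other male controls.

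Cox8b was high in male control 4 (1.05 scaled TPM, at most 0.164 in the other male controls) and in male KlKl 2 (0.753, others 0.0632 to 0.106). The same libraries held the most reads of Ucp1, Adipoq and Cidea among males of their group: 37, 96 and 66 in male control 4 and 90, 55 and 25 in male KlKl 2.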

How the results depend on the processing

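Under every alternative run, 0 members passed in the KlKl comparisons, and the sex comparisons kept the sign of their member medians. With 1 library left out, 60 to 69 members passed in controls and 55 to 67 in KlKl, and the medians less those of all genes ran from -0.73 to -0.63 and from -0.66 to -0.53. Without the 2 male +/+ controls, 49 members were lower and 0 higher in controls. Library weights gave 75 and 71 passing members. In the main fit 48.5% of all genes were called in controls and 36.6% in KlKl. Such shares are not given here for the left-out fits, heterozygous controls alone, library weights or the replicate block. On the deposited scale 25 members passed in KlKl. The coding-length correction, which removes a trend fitted over all genes, moved the medians to -0.39 and -0.36.
Replicate numbers did not pair the libraries: correlations of same-numbered deviations were -0.16 to 0.24 in males and -0.09 to 0.11 in females. With a replicate block 65 members passed in controls and 61 in KlKl, and 0 in the KlKl comparisons.
Of the named members, those that changed sign had not passed, except Ndufa4l2 in controls, and the cause was not tested. In controls, on the deposited scale, Sdhc was 0.26, Cox6a2 0.14 and Cox7a2l 0.056. With the length correction Sdhc was 0.089, Cox6a2 0.36, Ndufa4 0.069 and Ndufa4l2 0.0091. With 1 library left out, Cox6a2 ran from -0.34 to 0.12 and Sdhd from -0.025 to 0.25. In KlKl, on the deposited scale, Sdhc was 0.34, Cox7a2l 0.19, Cox8a 0.48 and Ndufa4 0.10. With the length correction Sdhc was 0.052, Cox6a2 0.027, Cox8a 0.43 and Ndufa4 0.0031. Cox8a was 0.0012 with scaling over all genes, 0.063 with library weights and 0.0062 with voom, with or without added copies. Without female control 3 and male KlKl 3, Sdhc was 0.031 and Cox8a 0.037. With 1 library left out, Sdhc ran from -0.19 to 0.031, Cox8a from -0.074 to 0.066 and Sdhd from -0.023 to 0.16.
Depth limits Cox4i2, Cox8b, Cox6a2 and Ndufa4l2, at 0 to 81 reads in any library.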
